A study of Mus musculus with 29 samples.

Results

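Basement membranes are thin sheets of matrix beneath epithelia, and 10 genes that encode their main building blocks were followed across all 29 arrays of the series: the collagen IV chains Col4a1 and Col4a2, the laminin chains Lama1, Lama5, Lamb1 and Lamc1, the nidogens Nid1 and Nid2, and the proteoglycans Hspg2 (perlecan) and Agrn (agrin). They were chosen by name, as core components, but with earlier results of these data known, as were the gene lists used below. Counts of calls set beside the shares over all genes therefore only describe these genes. All 10 passed the filter on dim probes, among 16332 genes that did. Cultured mouse cells were measured on single-colour Agilent expression arrays in 9 groups. Embryonic stem cells held in 2i and LIF make up ESC (3 arrays). Their cultures after 7 to 8 days of Activin, CHIRON and LIF make up Diff (3), and Mid (3, passage 7 to 10) and Late (3, passage 14 to 15) are nEnd cultures passaged on from Diff. These 12 arrays are of the double reporter line HRHnG. XEN (3) are extraembryonic endoderm cells of a line labelled Xen. ADE (4) are epiblast stem cells differentiated for 4 days to ADE, and EpiSC (3) are epiblast stem cells derived from ESC and kept as a stable culture, both of a line spelled HRHNG. NACL (4) and 2iL (3) are embryonic stem cells kept for at least 3 passages in N2B27 with Activin, CHIRON and LIF, or in 2i and LIF, and come from HVMC, E14 or E14-NanogGFP cells. All lines are labelled male, each nEnd replicate is a separate differentiation, and for the rest no label says how replicates were separated, so that p-values measure the spread between these samples alone.

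Collagen IV chains wind around each other in threes and join end to end into a network. Laminins are cross-shaped trimers of an alpha, a beta and a gamma chain that polymerise on the cell surface, and the alpha chain carries the main sites for cell receptors. Nidogens bind laminin and collagen IV and link both networks, while perlecan and agrin are large proteins with heparan sulfate chains that bind growth factors and receptors. In the mouse embryo the primitive endoderm and its parietal descendants are known for making much basement membrane, which builds up the thick Reichert's membrane.

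The collagen IV genes lie head to head, and RefSeq's promoter table (GRCm38.p6) holds windows of 300 bases, 250 before and 50 after the annotated start, for 7 of the 10 genes. Those of Col4a1 and Col4a2 share 78 bases on opposite strands, and they are shown with Lamb1, whose level moved with theirs, and Nid1, whose level did not. Capitals mark CCAAT and GGGCGG on either strand, ATTGG and CCGCCC being the same motifs on the other one, and neighbouring GGGCGG matches can overlap.
Col4a1, chr8:11312777-11313076, minus strand: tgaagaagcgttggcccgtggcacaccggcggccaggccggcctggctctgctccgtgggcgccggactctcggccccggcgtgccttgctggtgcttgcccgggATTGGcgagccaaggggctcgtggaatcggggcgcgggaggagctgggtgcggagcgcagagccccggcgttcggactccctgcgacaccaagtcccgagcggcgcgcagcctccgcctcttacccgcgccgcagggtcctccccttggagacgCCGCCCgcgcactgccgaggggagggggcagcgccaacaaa
Col4a2, chr8:11312555-11312854, plus strand: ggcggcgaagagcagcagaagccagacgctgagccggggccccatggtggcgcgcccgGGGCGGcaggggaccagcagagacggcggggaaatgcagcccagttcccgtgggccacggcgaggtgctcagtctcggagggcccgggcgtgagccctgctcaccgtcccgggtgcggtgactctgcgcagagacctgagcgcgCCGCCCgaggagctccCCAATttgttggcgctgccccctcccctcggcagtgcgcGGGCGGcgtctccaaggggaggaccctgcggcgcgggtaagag
Lamb1, chr12:31265043-31265342, plus strand: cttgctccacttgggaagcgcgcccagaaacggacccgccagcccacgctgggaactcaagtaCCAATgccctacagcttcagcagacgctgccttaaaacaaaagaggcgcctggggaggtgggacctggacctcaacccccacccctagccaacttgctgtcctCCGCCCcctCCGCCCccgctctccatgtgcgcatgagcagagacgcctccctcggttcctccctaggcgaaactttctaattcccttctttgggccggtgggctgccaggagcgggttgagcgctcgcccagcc
Nid1, chr13:13437352-13437651, plus strand: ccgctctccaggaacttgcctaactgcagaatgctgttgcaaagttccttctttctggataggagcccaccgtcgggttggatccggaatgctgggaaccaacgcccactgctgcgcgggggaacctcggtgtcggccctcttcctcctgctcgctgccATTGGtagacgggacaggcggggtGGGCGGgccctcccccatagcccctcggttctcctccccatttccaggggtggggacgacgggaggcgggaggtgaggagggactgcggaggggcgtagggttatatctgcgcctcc
Each of these 4 windows held 1 CCAAT, a motif present in 37.4% of all 32817 promoter windows, and the other 4 windows of members (Lama5, Hspg2 and, at different starts, Agrn) held 0. GGGCGG, present in 35.6% of all windows, was found 1 time for Col4a1, 3 times for Col4a2, 2 times for Lamb1 and 1 time for Nid1, and 2 to 12 times in the windows not shown. The match of Col4a1 lies in the bases that both collagen windows share, so the same site is also counted for Col4a2. The windows of Col4a1 and Col4a2 were 74.0% and 73.7% G or C, against a median of 52.7% over all windows. AGATAA and TGATAA, present in 11.2% and 9.06% of all windows, had no match in the 4 windows, nor had ACAAAG and ACAATG, present in 18.7% and 12.6%. CCAAT and GGGCGG thus each stand in all 4 windows shown, and their part in the levels was not tested.

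Values are log2 signals relative to the 75th percentile of each array, and differences between groups are given in log2 units with the standard error (SE) of limma and an adjusted p over all 16332 genes. A gene was called at an adjusted p under 0.05. Levels are compared between arrays and never between genes, since probes differ in brightness. The share of probes well above background ranged from 49.2% to 79.7% over the arrays, and 0 were saturated. The members were well above background on every array except for Col4a1, which was so on 1 of 3 ESC and 2 of 3 2iL arrays. Markers were read beside the labels. All 6 primitive endoderm markers were measured on every Diff, Mid, Late and XEN array, and Sox17, Sox7, Pdgfra and Dab2 on no ESC array. On every Diff, Mid and Late array all 6 parietal and all 5 visceral endoderm markers were measured too. XEN arrays had all 6 parietal markers, but none had Apoa1, a visceral marker. In Diff minus ESC 5 parietal markers rose and 1, Vim, fell (22.4% and 21% of the genes tested). Vim averaged 3.71 in ESC, 1.32 in Diff, -0.28 in Mid, 0.07 in Late and 6.98 in XEN. The 7 naive pluripotent markers were still measured on every Diff array. All 5 definitive endoderm markers were measured on every ADE array and also on every EpiSC array. On every ADE array all 6 primitive endoderm markers were measured as well. Of the definitive endoderm markers, Cer1 and Gsc were well above background on no Mid, Late or XEN array. Foxa2 and Hhex were so on all Mid, Late and XEN arrays, and Cxcr4 on all Mid and Late arrays but on no XEN array. The arrays fall into 2 sets, one with ESC, Diff, Mid, Late and XEN and one with ADE, EpiSC, NACL and 2iL, that share no slide or scan day, so set and group cannot be told apart for levels across them. In RNA of whole cultures, more cells of a type and more RNA per cell cannot be told apart.

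Along the series from ESC to Late, most calls fell on the first step. In Diff minus ESC 6 of 10 members rose and 0 fell, where 22.4% of the genes tested rose and 21% fell, and the median member differed by 2.61 against -0.09 over all genes. The members that rose were both collagen IV chains, a complete set of laminin chains (Lama1, Lamb1 and Lamc1) and perlecan, while both nidogens, Lama5 and agrin were not called. With median centring, which moved the median of all genes by 0.395 in this comparison, 72.9% of called genes were higher, against 51.6% in the main scaling. Later steps had few calls: 1 member fell in Mid minus Diff, where 13% of the genes tested rose and 16% fell, and 1 fell in Late minus Mid, where 3.72% rose and 3.27% fell. In ADE minus EpiSC all 10 were called, where 37.9% of the genes tested were, with 6 higher and 4 lower, where 16.7% of genes were called higher and 21.2% lower. There Lama5 and agrin rose, and Lama1, perlecan and both nidogens fell. Lama1 lost its call in several other fits, and Nid1 with only the arrays compared (-1.74, adjusted p = 0.07).

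**Figure D1:**
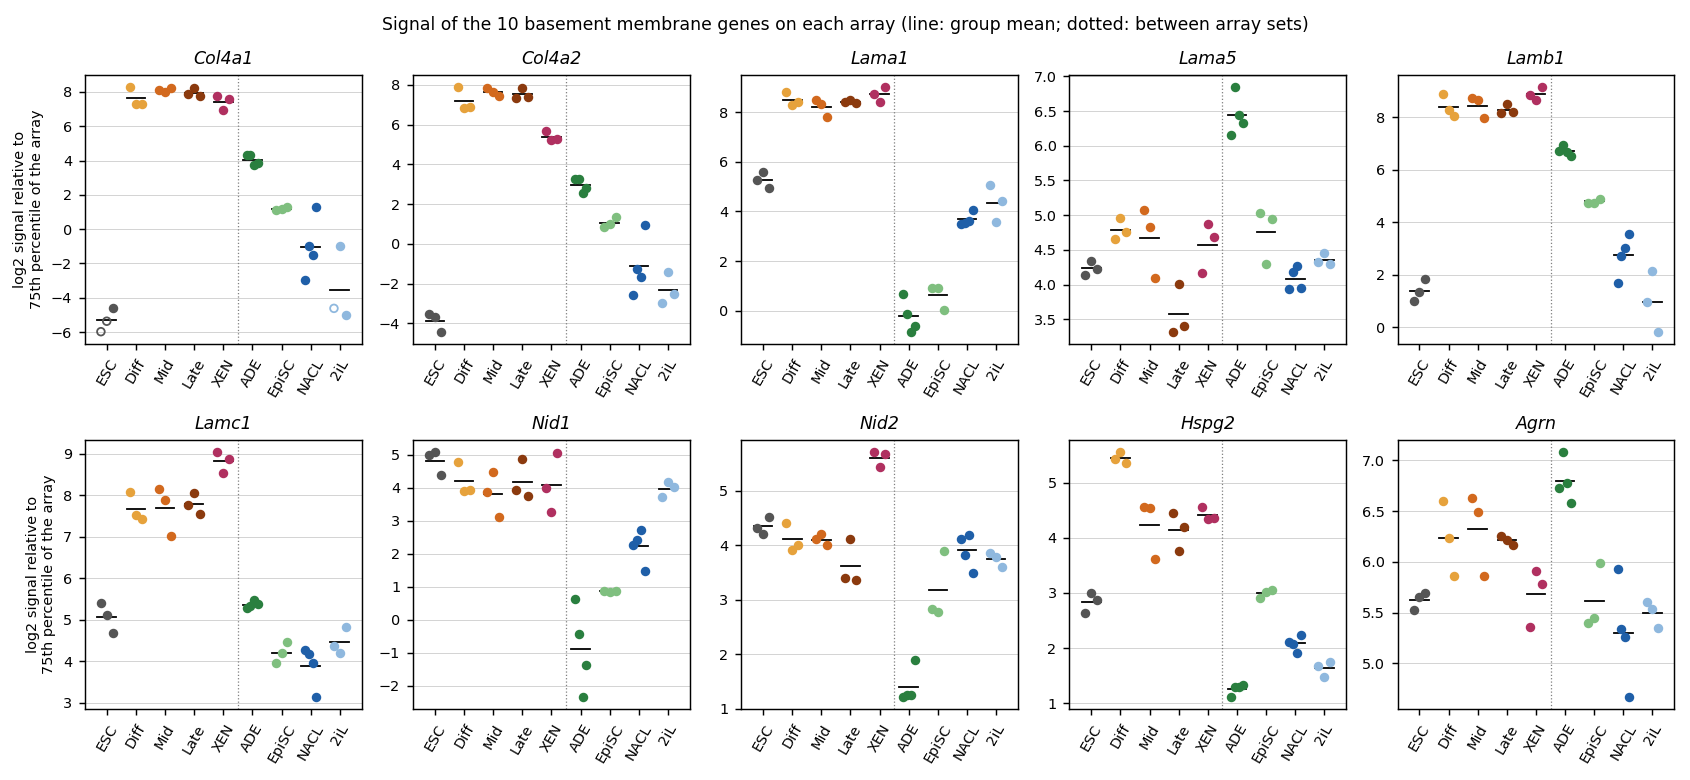
Signal of each gene on each array (y axis, log2 relative to the 75th percentile of the array; the range differs between panels) in the 9 groups, with the group mean as a line and open circles where the probe was not well above background. Col4a1, Col4a2, Lama1, Lamb1 and Lamc1 stand high in Diff, Mid, Late and XEN, whereas Lama5 stands highest in ADE.

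Collagen IV showed the largest differences among the members. Col4a1 read 8.3, 7.27 and 7.29 in Diff, against -5.98, -5.37 and -4.62 in ESC. Col4a2 read 7.9, 6.85 and 6.86 in Diff, against -3.54, -3.66 and -4.42 in ESC. Both chains thus stood far above every ESC array, and in each Diff replicate both were high. Col4a1 rose by 12.94 ± 0.80 (SE, n = 3 and 3; limma's adjusted p = 1.8e-11), a size that is less certain because 2 of 3 ESC arrays gave no signal well above background. Col4a2, measured on all arrays, rose by 11.08 ± 0.55 (adjusted p = 6.7e-13). Under the authors' deposited matrix these differences were 10.05 and 9.52. Neither later step was called for Col4a1, which averaged 8.10 ± 0.13 in Mid and 7.96 ± 0.24 in Late (SD, n = 3 each). The intervals still allow changes from -1.18 to 2.14 in Mid minus Diff and from -1.8 to 1.52 in Late minus Mid.

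In nEnd Col4a2 was higher than in XEN, the extraembryonic endoderm line, and Col4a1 was not called. Col4a2 read 7.84, 7.64 and 7.42 in Mid and 7.34, 7.83 and 7.41 in Late, which together are nEnd, against 5.67, 5.2 and 5.26 in XEN, without overlap. Its mean in nEnd was 2.21 ± 0.48 above XEN, or 4.61-fold (adjusted p = 0.00065). Every nEnd array entered this fit as a separate sample, although each Late array was taken to have a Mid partner. For all genes, the SE and adjusted p of nEnd minus XEN may therefore be too small. Col4a1 differed by 0.59 ± 0.69 (adjusted p = 0.53), with an interval from -0.84 to 2.03. With the authors' deposited matrix its difference was 1.1 and was called (adjusted p = 0.046). Across nEnd minus XEN 2 members were higher and 2 lower, where 17.1% of the genes tested were higher and 23.7% lower. Relative to ESC, XEN had both chains higher, by 12.76 ± 0.80 for Col4a1 and 9.25 ± 0.55 for Col4a2. In XEN minus ESC 7 members rose and 0 fell, where 29.4% of genes were called higher and 22.5% lower; this comparison shares its ESC arrays with Diff minus ESC. XEN is a line of its own, so line and group cannot be told apart in both comparisons.

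In the epiblast route collagen IV was well above background on every array before differentiation. Col4a1 read 4.3, 4.32, 3.72 and 3.88 in ADE, against 1.13, 1.18 and 1.28 in EpiSC, and rose by 2.86 ± 0.75 (adjusted p = 0.0039). Col4a2 read 3.24, 3.25, 2.54 and 2.8 in ADE, against 0.84, 0.98 and 1.35 in EpiSC, and rose by 1.90 ± 0.51 (adjusted p = 0.0051). No ADE array overlapped the EpiSC arrays for either chain. The difference of Diff minus ESC exceeded that of ADE minus EpiSC by 10.08 ± 1.1 for Col4a1 (adjusted p = 2.3e-07) and by 9.18 ± 0.75 for Col4a2 (adjusted p = 4.6e-09). In that contrast 7 members were higher and 1 lower, where 21% of genes were called higher and 15.7% lower.

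The laminin beta and gamma chains rose with collagen IV in Diff minus ESC. Lamb1, the beta chain, read 8.88, 8.26 and 8.04 in Diff, against 1.01, 1.34 and 1.84 in ESC. It rose by 6.99 ± 0.43 (adjusted p = 1.5e-11), or 127-fold. Lamc1, the gamma chain, read 8.09, 7.53 and 7.42 in Diff, against 5.41, 5.12 and 4.69 in ESC, and rose by 2.61 ± 0.29 (adjusted p = 1.8e-07). Lamc1 was thus already measured on every ESC array, and its rise was smaller than that of the beta chain. Within each array the log2 ratio of Lamb1 to Lamc1 averaged 0.71 ± 0.09 in Diff and -3.67 ± 0.78 in ESC (SD, n = 3 each). The exact two-sided permutation p of that ratio was 0.1, the smallest that 3 arrays against 3 allow, and 0.204 after adjustment over 25 ratio tests.

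Both chains also rose on the epiblast route. Lamb1 read 6.7, 6.93, 6.66 and 6.52 in ADE, against 4.75, 4.74 and 4.88 in EpiSC (1.91 ± 0.40, adjusted p = 0.00054). Lamc1 read 5.28, 5.33, 5.47 and 5.37 in ADE, against 3.95, 4.2 and 4.46 in EpiSC (1.16 ± 0.27, adjusted p = 0.0017). The groups did not overlap for either gene. Lamc1 also differed between nEnd and XEN. The 6 nEnd arrays ranged from 7.01 to 8.15, against 9.04, 8.54 and 8.88 in XEN. Lamc1 was lower in nEnd (-1.09 ± 0.25, adjusted p = 0.0014), in a fit that again left out the assumed pairing of Mid with Late.

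The alpha chains differed between the routes: Lama1 rose in Diff minus ESC, and Lama5 rose in ADE minus EpiSC. Lama1, the alpha chain that early embryos use in their first basement membranes, read 8.81, 8.29 and 8.4 in Diff, against 5.26, 5.59 and 4.93 in ESC, and rose by 3.24 ± 0.36 (adjusted p = 1.5e-07). Lama5, an alpha chain of many later epithelia, read 4.66, 4.96 and 4.75 in Diff, against 4.14, 4.34 and 4.23 in ESC, a difference of 0.56 ± 0.25 that was not called (adjusted p = 0.075), though the arrays did not overlap. It was called with median centring (0.95, adjusted p = 0.044), with normexp background correction (0.58, adjusted p = 0.044) and with only the arrays compared (0.56, adjusted p = 0.038). Lama1 read 0.67, -0.12, -0.85 and -0.64 in ADE, against 0.93, 0.93 and 0.01 in EpiSC. The groups overlapped, and its difference of -0.86 ± 0.34 passed narrowly (adjusted p = 0.047). It lost its call without EpiSC replicate 1 or 2 and without ADE replicate 2, 3 or 4 (-0.9 to -0.65, adjusted p from 0.061 to 0.18), and with the replicate number as a block (-0.72, adjusted p = 0.066). The call was also lost with normexp (-0.55), the authors' matrix (-0.61), median centring (-0.87), no filter on dim probes and only the arrays compared (-0.86 each; adjusted p from 0.063 to 0.15 over these 5 fits). Lama5 read 6.16, 6.85, 6.45 and 6.33 in ADE, against 5.03, 4.3 and 4.94 in EpiSC, without overlap, and rose by 1.69 ± 0.23 (adjusted p = 4.4e-06).

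The test of the difference between routes gave 4.10 ± 0.49 for Lama1 (adjusted p = 8.2e-07) and -1.13 ± 0.34 for Lama5 (adjusted p = 0.012). The value for Lama5 was -0.72 with median centring and was then not called (adjusted p = 0.3). Within each array the log2 ratio of Lama1 to Lama5 averaged 3.70 ± 0.41 in Diff and 1.02 ± 0.29 in ESC (SD, n = 3 each), and -6.68 ± 0.81 in ADE (n = 4) and -4.13 ± 0.78 in EpiSC (n = 3). The ratio was higher in Diff than in ESC and lower in ADE than in EpiSC, and the groups of each pair did not overlap. The exact two-sided permutation p was 0.1 for Diff and ESC and 0.0571 for ADE and EpiSC, in each case the smallest the design allows, with an adjusted value of 0.204.

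**Figure D2:**
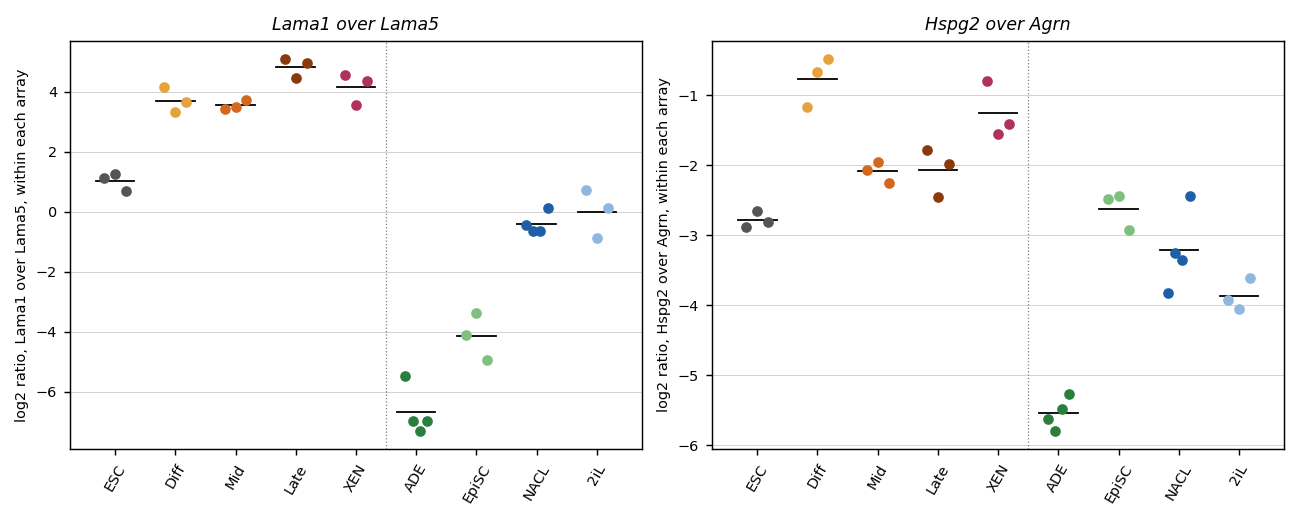
Log2 ratio of the signals of 2 genes within each array (y axis), for Lama1 over Lama5 and for Hspg2 over Agrn, in the 9 groups, with the group mean as a line. Both ratios are higher in Diff than in ESC and lower in ADE than in EpiSC, and a ratio has no meaning as an amount because probes differ in brightness.

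Lama5 was also the only member called in Late minus Mid. It read 3.32, 4.01 and 3.4 in Late, against 5.08, 4.83 and 4.09 in Mid. It fell by 1.09 ± 0.25 (adjusted p = 0.01), and the lowest Mid array lay close to the highest Late array. The call was lost with median centring (adjusted p = 0.082) and in fits without Mid replicate 1, Late replicate 1 or Late replicate 3 (-0.88, -0.96 and -1.0; adjusted p from 0.062 to 0.075). Lama1 was called in neither later step and averaged 8.50 ± 0.27 in Diff, 8.22 ± 0.36 in Mid and 8.42 ± 0.06 in Late (SD, n = 3 each).

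Neither nidogen was called in Diff minus ESC. Nid1 read 4.78, 3.91 and 3.94 in Diff, against 4.99, 5.08 and 4.39 in ESC, and Nid2 read 4.41, 3.91 and 4.01 in Diff, against 4.31, 4.21 and 4.52 in ESC. The groups overlapped for both, and neither difference was called (-0.61 ± 0.55, interval -1.75 to 0.52, and -0.24 ± 0.26, interval -0.78 to 0.31). A rise as large as that of Lamc1, the chain that nidogen binds, lies outside both intervals. Nid1 has 2 further probes, which gave -1.22 and -0.98. In nEnd Nid2 ranged from 3.37 to 4.2 over the 6 arrays, against 5.71, 5.43 and 5.67 in XEN, where its mean was the highest of the 9 groups. It was lower in nEnd (-1.74 ± 0.23, adjusted p = 1.7e-06), in a fit that left out the assumed pairing of Mid with Late.

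Both nidogens were lower in ADE. Nid2 read 1.22, 1.26, 1.26 and 1.9 in ADE, against 2.84, 2.78 and 3.9 in EpiSC (-1.76 ± 0.24, adjusted p = 4.8e-06). Nid1 read 0.64, -0.43, -2.34 and -1.37 in ADE, against 0.88, 0.84 and 0.88 in EpiSC (-1.74 ± 0.51, adjusted p = 0.0092). The groups did not overlap, but the ADE arrays spread widely for Nid1, and its difference was -2.72 on one slide and -0.78 on the other. Fibroblast markers were lower too: 4 of 6 fell in ADE minus EpiSC and 0 rose, with a median of -3.11, among them Col1a1 (-5.36 ± 0.99), Thy1 (-3.88 ± 0.74) and Postn (-3.26 ± 0.73). The log2 of their summed signal was 1.75 to 3.99 in ADE and 3.91 to 4.53 in EpiSC. Their part in the falls of the nidogens, Lama1 and perlecan was not tested. The difference between routes was called for Nid2 (1.53 ± 0.36, adjusted p = 0.0018) and not for Nid1 (1.13 ± 0.75, adjusted p = 0.26).

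Perlecan rose in Diff minus ESC and agrin was not called. Hspg2 read 5.43, 5.56 and 5.37 in Diff, against 2.64, 3.0 and 2.88 in ESC, and rose by 2.61 ± 0.20 (adjusted p = 5.7e-10). It was the only member called in Mid minus Diff, reading 4.56, 4.54 and 3.61 in Mid, a fall of 1.22 ± 0.20 (adjusted p = 8.8e-05). Agrn read 6.6, 6.23 and 5.86 in Diff, against 5.53, 5.65 and 5.69 in ESC, a difference of 0.61 ± 0.26 that was not called (adjusted p = 0.062). It was called with median centring (1.0, adjusted p = 0.048), with normexp background correction (0.72, adjusted p = 0.016) and with the first scan day alone (0.83, adjusted p = 0.036). Its second probe gave 0.02.

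In ADE the proteoglycans went opposite ways. Hspg2 read 1.11, 1.29, 1.3 and 1.32 in ADE, against 2.91, 3.01 and 3.06 in EpiSC, and fell by 1.74 ± 0.19 (adjusted p = 1.6e-07). Agrn read 6.73, 7.08, 6.78 and 6.58 in ADE, against 5.4, 5.45 and 5.99 in EpiSC, and rose by 1.18 ± 0.24 (adjusted p = 0.00043). Neither gene's groups overlapped. The difference between routes was 4.35 ± 0.28 for Hspg2 (adjusted p = 1e-10), while that of Agrn was not called (-0.57 ± 0.35, adjusted p = 0.22). Agrn was also called in nEnd minus XEN (0.58 ± 0.22, adjusted p = 0.04), with overlapping arrays, and it lost that call without Mid replicate 1 or 2, without any one Late array, without XEN replicate 1 or 3 (0.42 to 0.63, adjusted p from 0.054 to 0.22), and with Mid and Late arrays of a number averaged (adjusted p = 0.083). Median centring brought it to 0.2 (adjusted p = 0.68), and the call was also lost with no filter on dim probes, only the arrays compared and the slide as a fixed block (adjusted p = 0.056, 0.066 and 0.07).

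**Figure D3:**
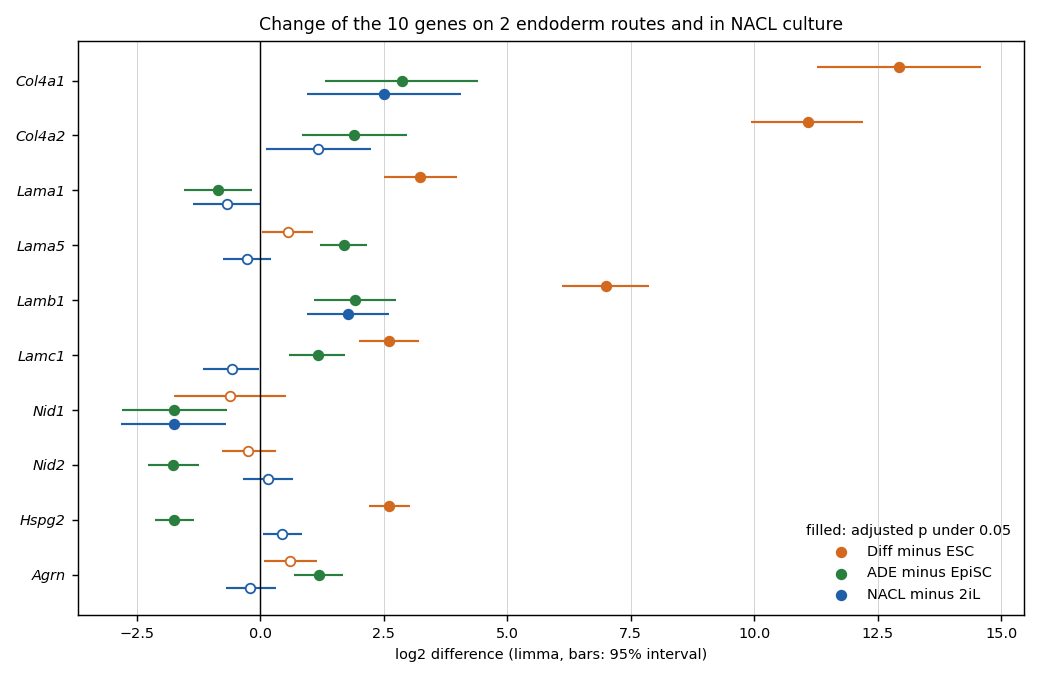
Log2 difference of each gene (x axis, with 95% intervals) in Diff minus ESC, ADE minus EpiSC and NACL minus 2iL, filled where the adjusted p was under 0.05. Collagen IV and Lamb1 lie far to the right for Diff minus ESC, and Lama1, Hspg2 and the nidogens lie left of 0 for ADE minus EpiSC.

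Epiblast stem cells and naive stem cells already differed before any endoderm was made. In EpiSC minus 2iL 4 members were higher and 2 lower, where 21.1% of genes were called higher and 20.9% lower. Lamb1 read 4.75, 4.74 and 4.88 in EpiSC, against 0.98, 2.13 and -0.17 in 2iL (3.81 ± 0.43, adjusted p = 1.7e-07). Lama1 read 0.93, 0.93 and 0.01 in EpiSC, against 5.05, 3.57 and 4.44 in 2iL (-3.73 ± 0.36, adjusted p = 1.8e-08). EpiSC arrays were thus all above the 2iL arrays for Lamb1 and all below them for Lama1. Col4a1, Col4a2 and Hspg2 were higher in EpiSC by 4.74 ± 0.80, 3.37 ± 0.55 and 1.36 ± 0.20, and Nid1 was lower (-3.10 ± 0.55). Fibroblast markers, which feeder cells would carry, moved with these groups: all 6 were measured on every EpiSC array, the log2 of their summed signal was 3.91 to 4.53 in EpiSC and 0.64 to 1.32 in 2iL, and Postn and Dcn were well above background on no 2iL array. Their part in these results was not tested, and the lines of EpiSC and 2iL differ, so line and group cannot be told apart. EpiSC arrays serve in ADE minus EpiSC too.

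NACL culture, which holds stem cells in the factors used to make Diff, gave 3 calls among the 10 genes, with a wide spread between arrays. In NACL minus 2iL 2 members were higher and 1 lower, where 4.3% of genes were called higher and 4.19% lower. Col4a1 read -2.96, -1.01, -1.5 and 1.3 in NACL, against -4.62, -1.01 and -5.01 in 2iL. Lamb1 read 1.67, 2.73, 3.03 and 3.56 in NACL, against 0.98, 2.13 and -0.17 in 2iL. Nid1 read 2.26, 2.43, 2.72 and 1.47 in NACL, against 3.72, 4.18 and 4.01 in 2iL. The groups overlapped for Col4a1 and Lamb1 and not for Nid1. The differences were 2.50 ± 0.75 for Col4a1 (adjusted p = 0.038), 1.77 ± 0.40 for Lamb1 (adjusted p = 0.006) and -1.75 ± 0.51 for Nid1 (adjusted p = 0.034).

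These 3 calls did not hold in every fit. With the cell line as a block none remained (adjusted p = 0.36, 0.22 and 0.059 for Col4a1, Lamb1 and Nid1). Within line E14-NanogGFP, 1 array a side, Col4a1 was 6.31 higher in NACL, while within E14 the value was -0.49 and within HVMC 2.64. Col4a1 lost its call without 2iL replicate 1 or 3 (1.97 and 1.77) and without NACL replicate 2, 3 or 4 (2.49, 2.66 and 1.72). The adjusted p was 0.053 to 0.24 over these 5 fits. Its difference was 1.11 with normexp background correction (adjusted p = 0.093) and 1.32 with the authors' matrix (adjusted p = 0.078). The call was also lost with no filter on dim probes, the slide as a fixed block and only the arrays compared (adjusted p = 0.052, 0.055 and 0.39). On 2iL replicates 1 and 3 its signal was only 8.73 and 7.91 intensity units. Nid1 lost its call without any one 2iL array and without NACL replicate 1, 2 or 4 (-1.88 to -1.5, adjusted p from 0.057 to 0.092). It also lost its call with the replicate number as a block (-1.5, adjusted p = 0.097) and with median centring (-1.76, adjusted p = 0.12). Lamb1 lost its call with only the arrays compared (1.77, adjusted p = 0.21) and without 2iL replicate 3, of line E14-NanogGFP (1.2, adjusted p = 0.069). NACL replicate 4, of that line, had the highest summed signal of the primitive endoderm markers (log2), 1.41 with 6 of 6 measured, against -0.43 to 0.05 in the other NACL arrays and -1.08 to -0.65 in 2iL. Fibroblast markers summed to 1.41 to 4.04 in NACL, against 0.64 to 1.32 in 2iL, with Thy1 averaging 2.59 in NACL and the other five -5.75 to -1.52, and 0 of 6 were called. The part of either marker list in the result was not tested. The difference of Diff minus ESC exceeded that of NACL minus 2iL for 6 members and fell short of it for 0, where 16.2% of genes were called higher and 14.9% lower. It did so by 10.44 ± 1.1 for Col4a1, 9.90 ± 0.75 for Col4a2, 5.22 ± 0.59 for Lamb1, 3.91 ± 0.49 for Lama1, 3.19 ± 0.40 for Lamc1 and 2.16 ± 0.28 for Hspg2.

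The order of the groups summarises the members, and where it crosses the array sets, set and group cannot be told apart. Col4a1 averaged 8.10 in Mid, 7.96 in Late, 7.62 in Diff and 7.44 in XEN, neighbours whose arrays overlapped. Next were 4.06 in ADE and 1.2 in EpiSC, both set apart from the group above. Then came -1.04 in NACL, -3.55 in 2iL and -5.32 in ESC, and from EpiSC downward all neighbours overlapped. Lamb1 had the same 4 groups on top, from 8.89 in XEN to 8.29 in Late. Lama5 averaged 6.45 in ADE, apart from all others, and 3.58 in Late, the lowest. Agrn spanned the narrowest range, 1.49 between its highest and lowest group mean, and Col4a1 the widest, 13.42. Over the 9 group means the genes most like Col4a1 were Insig2 (Pearson's r = 0.996), Vmp1 (0.994) and Myo1d (0.99), and those most like Col4a2 were Dab2 (0.991), Vmp1 (0.988) and Atxn7l1 (0.984). Lama1 was most like Rhox5 (0.993) and H2ap (0.989), Lamb1 most like Podxl (0.992), Runx1 and Pth1r (0.991 each), and Lamc1 most like Pak2 (0.995), Ncstn (0.988) and Wnt11 (0.987). Lama5 was most like Fbxl22 (0.928), Gpatch2l (0.917) and Tmsb15l (0.906). Nid1 was most like Fbxl5 (0.974), Nmrk1 (0.965) and Renbp (0.963), and Nid2 most like Poglut1 (0.976), Actr8 (0.937) and Tcf24 (0.931). Hspg2 was most like Asb1 (0.977), Myo1c (0.957) and Slc31a2 (0.955), and Agrn most like Cnbd2 (0.967), Kif12 (0.962) and Trafd1 (0.958). These are descriptions over 9 points that share arrays and array sets.

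The machinery that folds collagen rose with it at the first step. Of 11 genes for collagen folding and crosslinking 10 rose in Diff minus ESC and 0 fell, where 22.4% of the genes tested rose and 21% fell, with a median difference of 2.74 against -0.09 over all genes. Pxdn, the peroxidasin that forms sulfilimine bonds in collagen IV, rose by 8.31 ± 0.46, Serpinh1, the collagen chaperone, by 6.19 ± 0.43, and P4ha2, a prolyl hydroxylase subunit, by 4.54 ± 0.44 (adjusted p at most 1.9e-08). In ADE minus EpiSC 2 of the 11 rose and 2 fell, near the 16.7% and 21.2% over all genes. Pxdn (1.26 ± 0.43) and P4hb, the beta subunit of prolyl hydroxylase (0.93 ± 0.16), rose, and Plod2, a lysyl hydroxylase (-3.57 ± 0.28), and P4ha2 (-2.86 ± 0.41) fell. The difference between routes was called for 9 of the 11, all higher for Diff minus ESC.

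Of 11 further collagen and laminin chains tested 2 rose and 1 fell in Diff minus ESC, no more than the 22.4% and 21% over all genes: Lamb3, measured above background on 1 of 3 ESC arrays, rose by 3.19 ± 1.04, Lamb2 rose by 0.80 ± 0.26, and Lama3 was lower (-0.72 ± 0.22). Col18a1, a collagen of basement membranes, fell by 4.09 ± 0.65 in Mid minus Diff, where 3 of the 11 chains rose and 1 fell (13% and 16% over all genes). In ADE minus EpiSC 1 of the 11 rose and 5 fell (16.7% and 21.2% over all genes), among them Lama4 (-3.92 ± 0.73) and Col18a1 (-2.66 ± 0.61), while Lamb3 rose by 3.10 ± 0.97. In EpiSC minus 2iL 4 were higher and 1 lower (21.1% and 20.9% over all genes). Of 11 other matrix proteins 3 rose and 1 fell in Diff minus ESC, near the shares over all genes (22.4% and 21%), with Tinagl1 higher by 4.65 ± 0.56, Sparc, a collagen-binding protein, higher by 2.36 ± 0.33 and Fbln1, a fibulin, lower (-3.46 ± 0.47).

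Receptors were called in both directions in Diff minus ESC and only lower in ADE minus EpiSC. Of 12 receptors 5 rose and 3 fell in Diff minus ESC, where 22.4% of all genes rose and 21% fell, with Itga5, an integrin chain that binds fibronectin, higher by 2.99 ± 0.40, Sdc4, a syndecan, by 2.89 ± 0.42 and Itga3, which pairs into a laminin receptor, by 2.20 ± 0.53. In ADE minus EpiSC 8 of the 12 fell and 0 rose, where 21.2% of all genes fell and 16.7% rose, among them Itga3 (-3.27 ± 0.49), Sdc1 (-1.99 ± 0.34) and Bcam, a receptor for laminins with the alpha 5 chain (-1.98 ± 0.52). Of 9 proteases and inhibitors 6 rose and 1 fell in Diff minus ESC, against 22.4% and 21% over all genes. Timp3, an inhibitor bound to matrix and measured above background on 2 of 3 ESC arrays, rose by 8.00 ± 0.77, Htra1 by 4.69 ± 0.86 and Bmp1 by 4.38 ± 0.38.

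**Figure D4:**
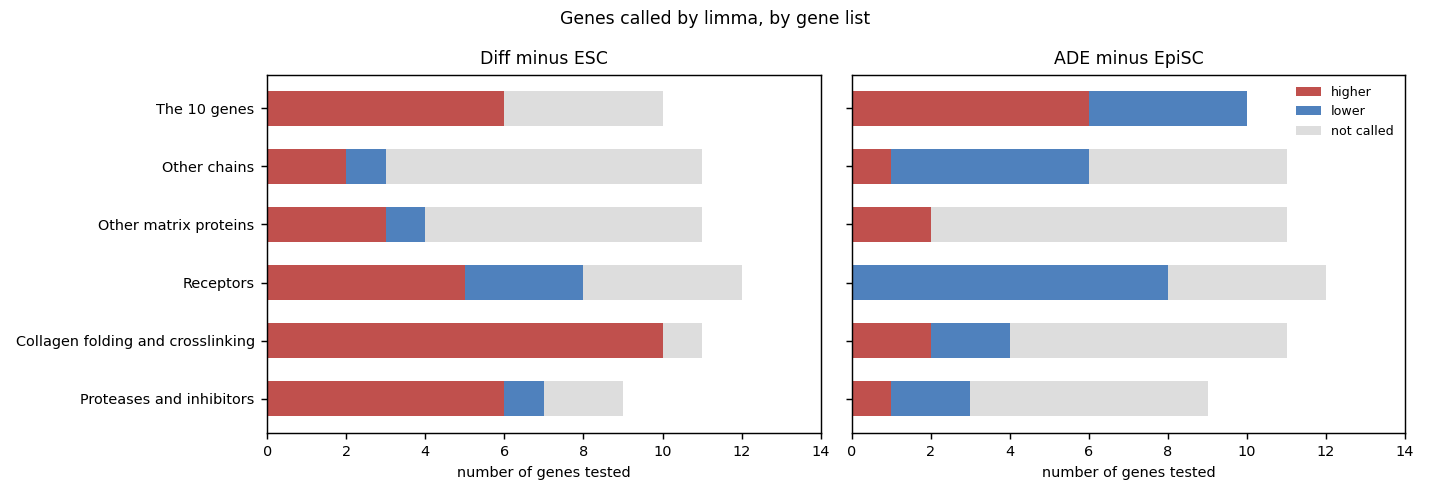
Number of genes tested in each list (x axis) that were called higher, called lower or not called in Diff minus ESC and in ADE minus EpiSC. Of the collagen folding genes 10 of 11 are higher in Diff minus ESC, and 8 of 12 receptors are lower in ADE minus EpiSC.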

How the data were processed

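Per the file headers, each deposited scanner file gives spot intensity as read by Agilent Feature Extraction (11.0.1.1 in the set with ESC and XEN, 12.0.1.1 in the other set; 9.1 per the submitters' processing notes) and background-corrected by it. From these, log2 values were computed here, spots marked irregular were dropped (132 to 243 of 59305 per array), spots of a probe were averaged and the 75th percentile of each array (151.8 to 366.0 intensity units) was subtracted. The authors' deposited matrix was read as log2 (column medians 5.94 to 5.949; its correlation with the scanner values was 0.909 to 0.937); its log base, centring and background step are not given in the sources used here, and it served as an alternative.

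Symbols came from RefSeq accessions (27636 of 55681 probes). The probe with the highest mean stood for a gene, and genes entered the test where some group (at least 1) had the probe well above background throughout. One limma model of 9 group means (lmFit, eBayes; limma 3.58.1, R 4.3.3, package data.table of version 1.17.8) gave all differences, with Benjamini-Hochberg adjustment within each. The nEnd value averages Mid and Late equally. Python 3.11.15, pandas 2.3.3, numpy 2.4.6 and matplotlib 3.10.9 were used. The fit was tested on simulated data with independent noise and no shared slide or pairing, unlike these arrays. A first bar for the share of changes recovered was missed. After that result it was replaced by the share expected from the simulated spread. Named were all members, up to 3 called genes per list with the largest differences, and the 3 genes most like each member; some genes that these rules name are not reported here. Members and lists were chosen with earlier results of these data known.

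Late and Mid arrays of the same number deviated together (correlations 0.218, 0.129 and 0.141), so these numbers were taken to pair the samples. Those of numbers 1 and 2 also share a slide, so pairing and slide cannot be told apart for them. Number 3 lies on different slides. ADE and EpiSC arrays of numbers 1 and 3, which share slides, correlated at 0.306 and 0.315, and number 2, on different slides, at -0.124. The part of the slide in this was not tested. The main model holds no pairing, so its Late minus Mid is an unpaired comparison. Pairing entered only in alternative fits, such as that with the replicate number as a block. The other groups' numbers did not all pair. Alternatives were the scaling, background, filter, probe rule, arrays fitted, blocks and leaving out each array.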

Additional observations from a re-analysis of the deposited data

Results flagged for a closer look

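The change on the naive route, Diff minus ESC, differed from that on the epiblast route, ADE minus EpiSC, for 8 members by the interaction test in limma. The excess was 10.08 for Col4a1, 9.18 for Col4a2, 5.08 for Lamb1 (adjusted p = 5.1e-07), 4.35 for Hspg2, 4.10 for Lama1, 1.53 for Nid2, 1.45 for Lamc1 (adjusted p = 0.0064) and -1.13 for Lama5. Against NACL minus 2iL it differed for 6: 10.44 for Col4a1, 9.90 for Col4a2, 5.22 for Lamb1, 3.91 for Lama1, 3.19 for Lamc1 and 2.16 for Hspg2 (the highest adjusted p was 3.3e-06). Each route's pair lies in an array set of its own, so route and set cannot be told apart.

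In ADE, replicate 4 stood apart for Nid2 at 1.9, above the other 3 arrays at 1.22 to 1.26, and replicate 1 stood apart for Hspg2 at 1.11, below the others at 1.29 to 1.32. These were 2 of 20 groups of 4 arrays examined, and chance alone sets apart about 1 in 20.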

How the results depend on the processing

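Of the member differences refitted under other settings, 1089 kept direction and side of the threshold, 26 lost a call, 14 gained one and 31 changed sign. In fits that left out 1 array these counts were 728, 27, 8 and 27. No difference that changed sign was called in the main fit. The number of members called in Mid minus Diff was 0 with the authors' matrix, under which Hspg2 and Agrn were not tested. In Late minus Mid it was 0 with median centring and with only the arrays compared, and 0 to 1 when leaving out 1 array. In NACL minus 2iL it was 1 with only the arrays compared, 0 with the cell line as a block and 0 to 3 when leaving out 1 array.

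Sign changes were as follows. Median centring gave 0.16 (Nid2, Diff minus ESC), -0.03 (Lamc1, Mid minus Diff and Late minus Mid) and 0.0046 (Nid2, Diff minus ESC less NACL minus 2iL). Quantile normalization gave 0.22, 0.07 and 0.15 (Lama1, Lama5 and Nid2, Mid minus Diff), -0.02 and -0.16 (Lama1 and Lamc1, Late minus Mid), 0.07 and 0.19 (Hspg2 and Nid1, nEnd minus XEN) and -0.28 and -0.04 (Agrn and Lama5, XEN minus ESC). The authors' matrix gave 0.3, 0.06 and 0.11 (Lama1, Lama5 and Nid2, Mid minus Diff), -0.08 and -0.25 (Lama1 and Lamc1, Late minus Mid) and 0.06 (Nid1, nEnd minus XEN). The mean of all probes gave -0.16 (Agrn, XEN minus ESC). Chosen after seeing the data, slide as a fixed block gave 0.02 and 0.08 (Lama5 and Nid1, Mid minus Diff), 0.11 and -0.14 (Col4a1 and Lamc1, Late minus Mid) and 0.24 (Nid1, nEnd minus XEN), and the first scan day alone gave 0.14 (Lama5, Mid minus Diff), -0.002, -0.24 and -0.0035 (Lama1, Lamc1 and Nid1, Late minus Mid) and 0.56 (Nid1, nEnd minus XEN); averaging Mid and Late arrays was also chosen then. The replicate block gave 0.01 for Agrn in NACL minus 2iL, and beyond the calls given for Lama1 and Nid1 it changed no member's call. The cause of these changes was not tested.

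Leaving out 1 array gave ranges in Mid minus Diff of -0.09 to 0.33 (Agrn), -0.33 to 0.16 (Lama5), -0.12 to 0.3 (Lamb1), -0.23 to 0.34 (Lamc1) and -0.1 to 0.15 (Nid2). In Late minus Mid they were -0.35 to 0.04 (Agrn), -0.41 to 0.09 (Hspg2), -0.002 to 0.35 (Lama1), -0.24 to 0.33 (Lamc1) and -0.0035 to 0.69 (Nid1). For Nid1 in nEnd minus XEN the range was -0.51 to 0.38, and for Agrn it was -0.05 to 0.22 in XEN minus ESC, -0.41 to 0.01 in NACL minus 2iL and -0.07 to 0.22 in EpiSC minus 2iL.

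Over all genes, calls in Mid minus Diff were 4731, against 2948 with median centring and 2720 with only the arrays compared. In Late minus Mid they were 1142, against 391 and 263, and 422 to 1262 without 1 array. In NACL minus 2iL they were 1388, against 868, 450 and, with the line block, 238, and 821 to 1662 without 1 array. Median centring moved the share of calls that were higher to 24.6% from 53.2% in Late minus Mid, to 23.6% from 41.9% in nEnd minus XEN, to 78.2% from 56.6% in XEN minus ESC, and to 72.6% from 57.2% and 77.8% from 52% in the contrasts of Diff minus ESC with ADE minus EpiSC and NACL minus 2iL. The number of arrays limits the precision.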
